A study of Mus musculus with 28 samples.

Results

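The leukocytes of MC38 tumours and of B16.F10 tumours grown in control mice were compared on 6 of the 28 arrays of the series, 3 arrays for each tumour. The 6 arrays were chosen by their labels, as CD45+ cells sorted from MC38 tumours on day 12 and from B16.F10 tumours on day 18 of the hosts coded FYC, and because both groups share one distribution of values. MC38 is a mouse colon carcinoma line and B16.F10 a mouse melanoma line. The hosts of all 6 arrays had the genotype Foxp3Cre-YFP, so that a Cre recombinase and a yellow fluorescent protein are made where Foxp3 is transcribed, mainly in regulatory T cells, and the labels give these hosts no floxed allele. The series also holds hosts of the genotype Nrp1L/LFoxp3Cre-YFP, in which the Cre removes Nrp1 from those cells, with 3 arrays from MC38 tumours on day 12 and 3 from B16.F10 tumours on day 18. They are called Nrp1-deleted hosts below and were used as a second set of hosts for the same comparison. The tumour line and the day differ together between the groups, so the line and the day cannot be told apart. The labels used here do not say whether each array came from its own mouse or from pooled mice. The tests see only how far arrays scatter within groups, taken over all 28 arrays of the series, and that scatter may be technical.

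Tumours recruit macrophages, monocytes, granulocytes, dendritic cells and lymphocytes from the blood, and CD45, encoded by Ptprc, is carried by all of them and by few other nucleated cells. Macrophages take up debris and lipoproteins and present antigen, while CD8 T cells and NK cells kill target cells with granzymes and perforin. MC38 tumours are widely used as a strongly inflamed model and B16.F10 tumours as a poorly inflamed one.

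In MC38 tumours, transcripts of macrophages and of most measured genes best known from microglia were higher. Those of Fc receptors, Toll-like receptors, complement C1q, lysosomal proteases, class II antigen presentation, mast cell proteases and several collagens were higher as well. Transcripts of T cells, of cytotoxic and inhibitory T cell genes, of the cholesterol pathway, of the cell cycle and of melanocytes were lower. So were 3 of the 5 measured plasmacytoid dendritic cell genes, with 1 higher. Of 17097 genes tested, 5257 passed an adjusted p of 0.05 in limma, which is 30.7%, with 2559 higher in MC38 tumours (15%) and 2698 lower (15.8%). At least a 2-fold difference was also met by 735 higher genes (4.3%) and 745 lower genes (4.36%). Every count of list members below stands against these shares. The median difference over all genes was 0.02 on the log2 scale, and the median standard error of a difference was 0.15.

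All levels are log2 values of the arrays, and a difference of 1 is a 2-fold difference. Each gene is represented by its brightest probe set, and averaging all probe sets of a gene moved the values of some named genes by over 1.5 times, as listed at the end. A gene is said to be called, higher or lower where its adjusted p from limma was under 0.05. The median of all values on the 6 arrays was 3.51, and levels near or under it are those of dim probe sets, against which a difference is no exact fold. Arrays of the same tumour correlated at 0.9885 to 0.9921 over all genes for MC38 and 0.9914 to 0.9922 for B16.F10, and arrays of different tumours at 0.9518 to 0.967. Of the MC38 arrays, replicate 3 was lowest and replicate 2 highest in most T cell genes, and of the B16.F10 arrays, replicate 2 was lowest in most macrophage genes.

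**Figure D1:**
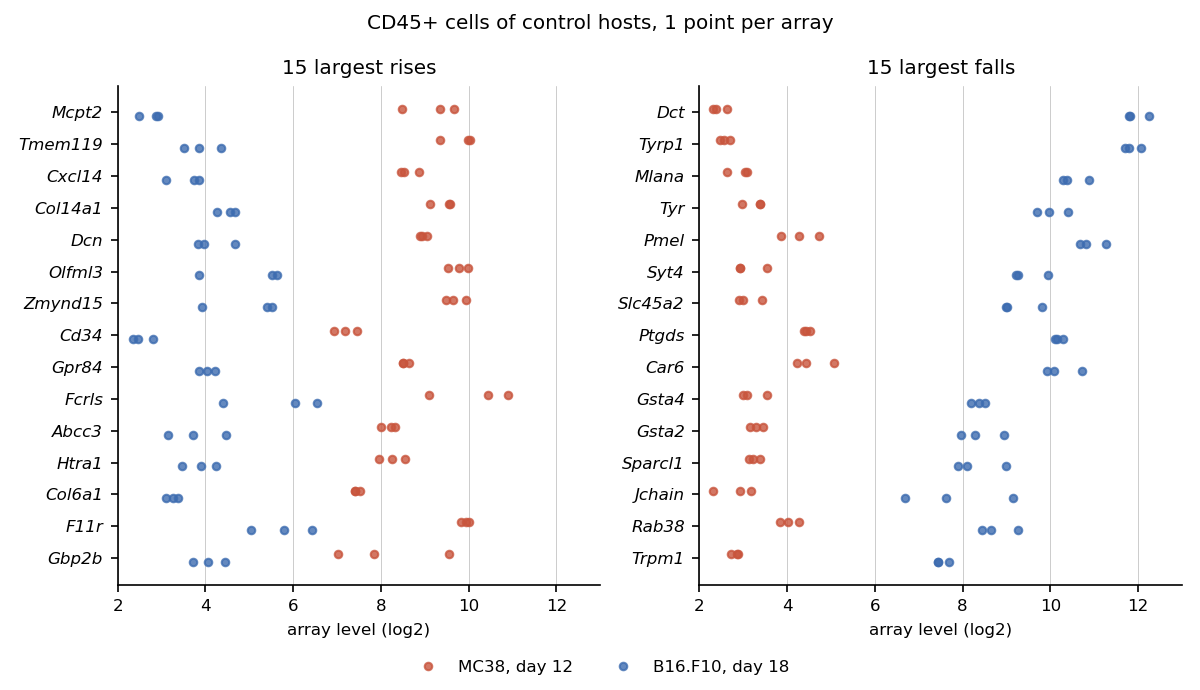
Array levels (log2, horizontal axis) of the 15 genes with the largest rise and the 15 with the largest fall in MC38 tumours under the naming rule, 1 point per array, with MC38 arrays in red above the B16.F10 arrays in blue. The rule admits only genes whose arrays do not overlap between the groups. The melanocyte genes Dct and Tyrp1 lie between 2.31 and 2.70 in MC38 tumours and between 11.71 and 12.24 in B16.F10 tumours.

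The largest differences were in genes of pigment cells. All 14 measured members of a melanocytic list were lower in MC38 tumours, with a median difference of -4.72. Dct, which encodes an enzyme of melanin synthesis, had levels of 2.38, 2.63 and 2.31 in MC38 tumours, against 11.81, 12.24 and 11.80 in B16.F10 tumours. The 3 MC38 arrays were dim and the 3 B16.F10 arrays bright, with a difference of -9.51 ± 0.30 (SE, adjusted p = 3.6e-16). Tyrp1, encoding a second such enzyme, differed by -9.28 ± 0.30, and Tyr, encoding tyrosinase, by -6.78 ± 0.34. Pmel, encoding the protein on which melanin is laid down, had levels of 4.26, 4.72 and 3.87 in MC38 tumours and 10.67, 11.27 and 10.81 in B16.F10 tumours. Mlana, Slc45a2, Rab38 and Trpm1, also pigment cell genes, differed by -7.60, -6.16, -4.74 and -4.70. The smallest difference of the list was -0.93, of Mcoln3. The summed level of the 14 genes on the linear scale was 348 to 385 on the MC38 arrays and 12857 to 18238 on the B16.F10 arrays. Transcripts of melanocytes were thus measured at high levels in cells sorted as CD45+ from B16.F10 tumours, and their part in the other differences was not tested.

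The promoters of 3 of these enzyme genes are shown because the genes moved together and all 3 windows hold the sequence TCATGTG, the core of the M-box that is known to bind the melanocyte factor Mitf. The windows run from 250 bases before to 50 bases after the start of the gene, are taken from RefSeq on build GRCm38.p6, are written 5′ to 3′ on the strand of the gene, and have the motif in capitals on either strand.
Tyr, chr7:87493463-87493762, minus strand: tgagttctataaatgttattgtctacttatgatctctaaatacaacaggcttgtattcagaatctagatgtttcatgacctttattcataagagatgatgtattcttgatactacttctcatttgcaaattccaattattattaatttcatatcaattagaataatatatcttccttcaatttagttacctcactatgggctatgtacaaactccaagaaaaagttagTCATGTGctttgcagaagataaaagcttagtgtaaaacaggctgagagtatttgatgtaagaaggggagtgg
Tyrp1, chr4:80833963-80834262, plus strand: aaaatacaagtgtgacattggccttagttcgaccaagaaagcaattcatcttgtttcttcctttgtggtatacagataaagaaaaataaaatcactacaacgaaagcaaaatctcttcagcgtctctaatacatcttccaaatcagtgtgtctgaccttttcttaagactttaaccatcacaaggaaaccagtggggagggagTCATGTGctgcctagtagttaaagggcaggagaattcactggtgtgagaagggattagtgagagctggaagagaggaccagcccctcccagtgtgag
Dct, chr14:118052197-118052496, minus strand: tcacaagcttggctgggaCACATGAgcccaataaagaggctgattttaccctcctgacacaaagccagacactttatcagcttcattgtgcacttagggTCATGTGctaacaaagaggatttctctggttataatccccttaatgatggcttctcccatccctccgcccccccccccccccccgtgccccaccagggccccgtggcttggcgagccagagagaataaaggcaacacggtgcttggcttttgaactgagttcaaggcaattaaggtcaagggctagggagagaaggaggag
TCATGTG was found in a window of 5 of the 8 list members that have one in the RefSeq table (Tyr, Tyrp1, Dct, Trpm1 and Mc1r), and in 4.3% of all 27025 genes there. Such a match describes these letters and is no measure of binding.

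Genes of epithelial and endothelial cells, which also lack CD45, were almost all not called. In the higher group, 3 of the 15 epithelial and 8 of the 13 endothelial genes lay above the dim level. The dim ones say little about whether such cells were present. Of 15 epithelial genes, 1 was higher in MC38 tumours and 14 were not called, and their summed linear level was 242 to 336 on MC38 arrays and 176 to 225 on B16.F10 arrays. The 1 called was Cdh1, encoding E-cadherin, at 7.61, 6.89 and 7.72 in MC38 tumours and 6.02, 5.70 and 6.6 in B16.F10 tumours, a difference of 1.30 ± 0.40 that lost its call when MC38 replicate 1 or 3 or B16.F10 replicate 2 was left out. Epcam, a defining epithelial surface gene, was at 3.66, 3.65 and 4.0 in MC38 tumours and 3.87, 4.05 and 4.50 in B16.F10 tumours, and the keratin genes Krt8 and Krt18 lay between 2.28 and 2.96 on all 6 arrays. Of 13 endothelial genes, 0 were called in limma (2 without MC38 replicate 3). The arrays of 3 did not overlap, against 39.2% of all genes. The defining gene Cdh5 lay between 2.15 and 2.89 on all 6 arrays. Ptprc itself had levels of 11.78, 11.89 and 11.51 in MC38 tumours and 11.95, 11.89 and 11.78 in B16.F10 tumours, with a difference of -0.15 ± 0.07 (adjusted p = 0.13). Of 9 measured genes in a leukocyte identity list, Ptprc among them, 6 were higher in MC38 tumours and 0 lower, with a median of 0.41. Without 1 array at a time, 5 to 6 were higher and 0 to 1 lower. Of 4 sex-linked genes, 0 were called. The RNA is bulk, so fewer cells of a type and less RNA per cell cannot be told apart.

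Several collagens and matrix genes were higher in MC38 tumours, while the fibroblast genes Col1a1, Col1a2, Lum and Pdgfra were dim in both groups. Of 17 genes in a fibroblast list, 8 were higher in MC38 tumours and 1 was lower, with a median difference of 0.41. The median was 0.24 without MC38 replicate 1 and 0.66 without MC38 replicate 2. Over the 11 members above the dim level in the higher group it was 2.70. A gene bright in only 1 group passes that filter, so this value is no check of the median. Dcn, encoding the matrix proteoglycan decorin, had levels of 8.88, 9.05 and 8.94 in MC38 tumours, against 3.84, 4.68 and 3.97 in B16.F10 tumours. The groups were far apart, with a difference of 4.8 ± 0.24 (adjusted p = 1.15e-12). Col3a1, encoding the chain of type III collagen, was at 10.43, 10.44 and 10.68 in MC38 tumours and 6.58, 8.10 and 6.47 in B16.F10 tumours, where replicate 2 was the highest. Col6a1 and Col6a2, chains of type VI collagen, differed by 4.2 and 4.03, and Col14a1, which is in no list, by 4.91. Col1a1, encoding the main chain of type I collagen, was dim throughout, at 3.19, 3.69 and 3.31 in MC38 tumours and 2.97, 3.56 and 3.41 in B16.F10 tumours. Col1a2, Lum and Pdgfra, also defining fibroblast genes, lay between 2.46 and 3.78 on all 6 arrays. The 1 lower gene was Thy1, which T cells also carry, at -1.68 on the log2 scale. The summed linear level of the list was 3745 to 4229 on MC38 arrays and 2153 to 2878 on B16.F10 arrays, and the part of stromal RNA in these differences was not tested. Matrix metalloproteinases cut such proteins, and 5 of 13 members of their list were higher and 0 lower. Mmp14, a protease anchored in the membrane, had levels of 10.92, 10.82 and 10.70 in MC38 tumours and 8.96, 8.62 and 8.73 in B16.F10 tumours, a 4.14-fold higher level. Mmp2, a gelatinase that Mmp14 activates, differed by 2.66 ± 0.25 and the gelatinase Mmp9 by 2.04 ± 0.33. Timp2, an inhibitor of these proteases, was higher by 1.15 ± 0.21.

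Macrophage transcripts were higher in MC38 tumours. Of 14 measured macrophage genes, 12 were higher and 0 lower, with a median difference of 1.82, and the arrays did not overlap for 13 of them, against 39.2% of all genes. Adgre1, encoding an adhesion receptor of the macrophage surface, had levels of 10.93, 10.72 and 10.66 in MC38 tumours and 8.78, 7.92 and 8.48 in B16.F10 tumours. All 3 MC38 arrays lay above all B16.F10 arrays, with a difference of 2.38 ± 0.26 (adjusted p = 2.22e-07). Csf1r, the receptor for the growth factor that macrophages need, differed by 2.22 ± 0.17. Trem2, a receptor for lipids and apolipoproteins, was at 9.89, 9.41 and 9.91 in MC38 tumours and 7.37, 5.4 and 7.05 in B16.F10 tumours, a difference of 3.13 ± 0.37. B16.F10 replicate 2 was the lowest array there, as it was for Ms4a7, with levels of 11.55, 11.39 and 11.42 in MC38 tumours and 9.26, 7.35 and 8.89 in B16.F10 tumours. Apoe, encoding an apolipoprotein that macrophages secrete, differed by 2.43 ± 0.30. The 2 not called were Mertk, a receptor for dying cells, with a difference of 0.07 ± 0.29, and Cd14, a co-receptor for lipopolysaccharide, with 0.96 ± 0.38 (adjusted p = 0.058). The median without 1 array at a time stayed between 1.39 and 2.11.

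Genes best known from microglia, the macrophages of the brain, had the largest median rise of all lists. The lists were written with earlier results of these data known, so this rank is no independent result. Of 11 measured, 8 were higher and 1 lower in MC38 tumours, with a median difference of 3.04. Csf3r, 1 of the higher genes, also stands in the neutrophil list. Tmem119, a microglial surface gene, had levels of 9.99, 9.34 and 10.02 in MC38 tumours, against 3.86, 3.52 and 4.36 in B16.F10 tumours. The B16.F10 arrays were close to the median of all values, and the difference was 5.87 ± 0.24 (adjusted p = 3.42e-14). Fcrls was at 10.45, 9.10 and 10.90 in MC38 tumours and 6.03, 4.39 and 6.55 in B16.F10 tumours. Olfml3, P2ry12 and P2ry13, the last 2 being receptors for nucleotides, differed by 4.76, 3.5 and 3.05. Cx3cr1, the receptor for the chemokine Cx3cl1, had levels of 10.95, 10.75 and 10.80 in MC38 tumours and 8.33, 7.72 and 7.58 in B16.F10 tumours. Sall1, the transcription factor that defines microglia, was dim on all arrays, at 3.20, 3.05 and 3.20 in MC38 tumours and 2.91, 2.83 and 3.02 in B16.F10 tumours. The 1 lower gene was Slc2a5, a fructose transporter, at -0.98 ± 0.21.

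**Figure D2:**
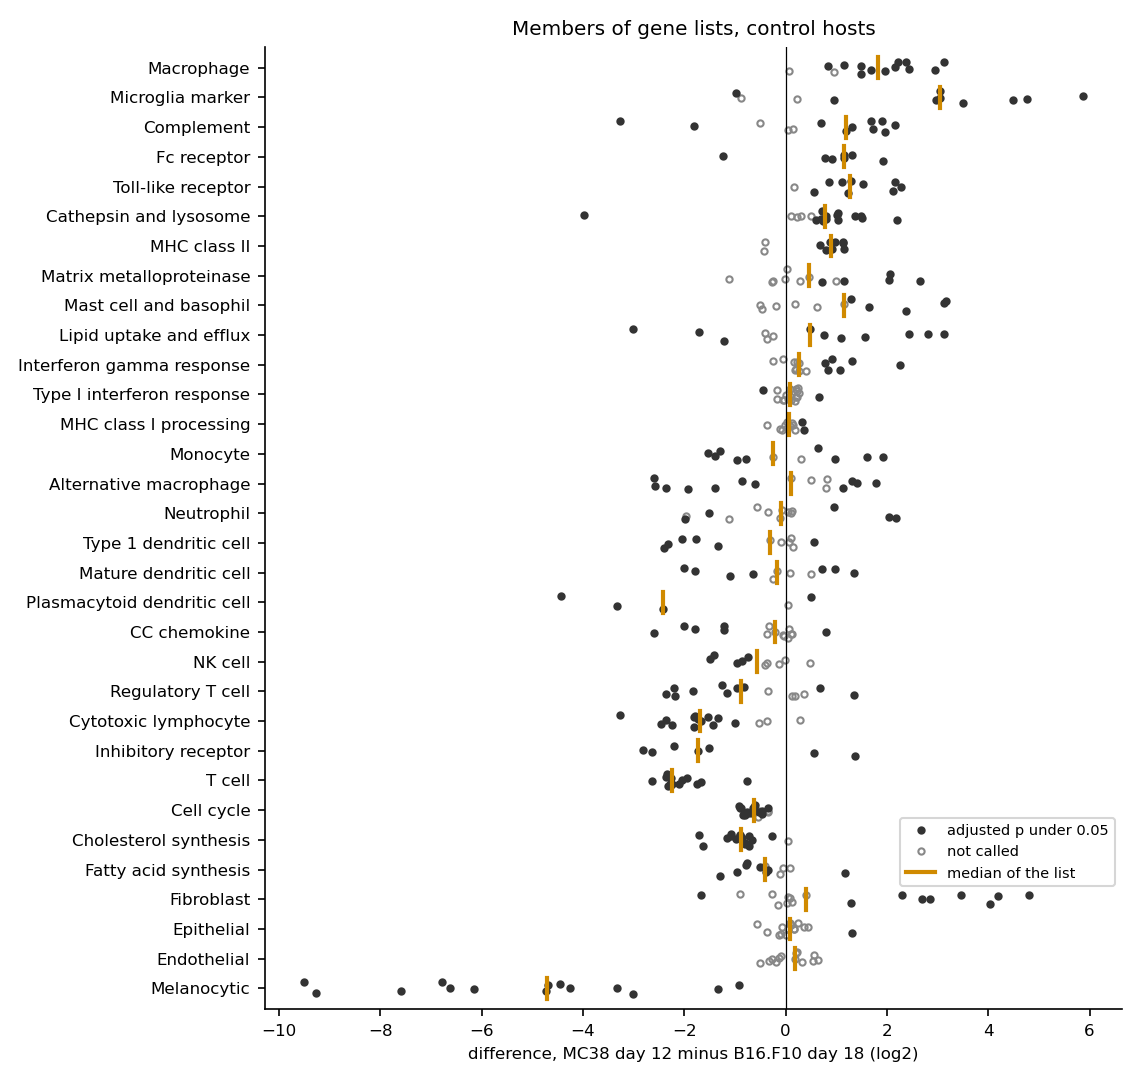
Differences of MC38 day 12 minus B16.F10 day 18 (log2, horizontal axis) for the measured members of 32 gene lists, filled where the adjusted p was under 0.05 and open where it was not, with the median of each list as an orange bar. All 14 T cell and all 14 melanocytic members lie left of 0, and all 14 macrophage members right of it, while monocyte and alternative macrophage members lie on both sides.

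Receptors by which phagocytes sense antibodies and microbes were higher as well. Of 7 Fc receptor genes, 6 were higher and 1, Fcrla, was lower (0 without B16.F10 replicate 3), and of 10 Toll-like receptor genes, 9 were higher and 0 lower. Fcgr4, an activating receptor for antibody, had levels of 11.26, 11.51 and 10.75 in MC38 tumours and 9.38, 9.03 and 9.33 in B16.F10 tumours. The arrays of both groups were well apart, with a difference of 1.92 ± 0.26. Fcgr3, Fcgr1 and the inhibitory receptor Fcgr2b differed by 1.30, 1.16 and 1.15. Tlr2, which senses bacterial lipoproteins, was at 11.09, 11.04 and 11.14 in MC38 tumours and 9.07, 8.53 and 9.18 in B16.F10 tumours. Tlr8 and Tlr12 differed by 2.12 ± 0.22 and 2.27 ± 0.25, while Tlr9, a sensor of DNA, was dim and not called at 0.17 ± 0.19. Of 10 scavenger receptors, 5 were higher and 1 was lower (2 without B16.F10 replicate 2, 0 without B16.F10 replicate 3). Msr1, which binds modified lipoproteins, differed by 1.56 ± 0.27, and Stab1, which clears matrix fragments, by 1.78 ± 0.25.

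Complement split by component. Of 13 genes, 8 were higher and 2 lower in MC38 tumours, with a median of 1.19. C1qa, encoding a chain of the recognition molecule C1q, was at 12.22, 12.12 and 12.21 in MC38 tumours and 10.86, 9.28 and 10.54 in B16.F10 tumours. C1qc differed by 2.15 ± 0.28, and Cfb, a protease of the alternative pathway, by 1.90 ± 0.22. C2, the protease next to Cfb in the genome and used by the classical pathway, went the other way, with 4.17, 4.44 and 3.37 in MC38 tumours and 7.15, 7.65 and 7.0 in B16.F10 tumours. Its difference of -3.27 ± 0.27 had an adjusted p of 3.06e-09. Cd55, which protects cells from complement, was lower by -1.80 ± 0.30 on the log2 scale.

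Lysosomal genes were mostly higher. Of 18 genes in a list of cathepsins and lysosomal proteins, 13 were higher and 1 lower in MC38 tumours, with a median of 0.77. Ctsh, a cathepsin of the lysosome, had levels of 11.68, 11.57 and 11.48 in MC38 tumours and 10.37, 9.97 and 10.33 in B16.F10 tumours. Lgmn, the asparagine protease legumain, differed by 1.49 ± 0.31 and Acp5, an acid phosphatase of macrophages and osteoclasts, by 1.5 ± 0.23. The 1 lower gene was Gpnmb, a glycoprotein of lysosomes and melanosomes, at 6.90, 5.29 and 6.36 in MC38 tumours and 9.91, 10.45 and 10.13 in B16.F10 tumours. Gpnmb is also used by melanocytes, whose genes moved in the same direction, and their part in its difference was not tested.

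Monocyte genes and genes of alternatively activated macrophages did not move in one direction. Of 11 monocyte genes, 4 were higher and 5 lower, with a median of -0.24. Without B16.F10 replicate 2 or MC38 replicate 1 the lower genes numbered 3, and without B16.F10 replicate 3 or MC38 replicate 1 the median was -0.14. Itgam, encoding the integrin CD11b, was at 9.18, 9.56 and 9.31 in MC38 tumours and 7.75, 7.71 and 7.77 in B16.F10 tumours, and Fn1, encoding fibronectin, differed by 1.93 ± 0.32. Spn, encoding the sialoprotein CD43, was lower by -1.30 ± 0.23. Of 15 genes in the alternative macrophage list, 4 were higher and 7 lower, and the median of 0.10 turned to -0.38 without B16.F10 replicate 2 and -0.09 without MC38 replicate 1, and was 0.37 without B16.F10 replicate 3. The higher genes numbered 2 without B16.F10 replicate 2 or MC38 replicate 3, and the lower genes 4 without B16.F10 replicate 3. Mgl2, a lectin of macrophages and dendritic cells, was at 4.41, 3.25 and 6.16 in MC38 tumours and 7.05, 6.76 and 7.76 in B16.F10 tumours, a 5.99-fold lower level. Clec10a, a related lectin, differed by -2.36 ± 0.41, and the chemokine Ccl24 by -2.60 ± 0.59. Arg1, encoding the enzyme that breaks down arginine, was at 12.14, 12.05 and 12.48 in MC38 tumours and 10.43, 10.68 and 11.33 in B16.F10 tumours, and its call (adjusted p = 0.0143) was lost without B16.F10 replicate 1 or MC38 replicate 3.

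Among granulocyte lists, neutrophil genes moved in both directions, eosinophil genes were dim and several mast cell genes were higher. Of 14 neutrophil genes, 3 were higher and 2 lower (4 lower without B16.F10 replicate 2, 1 lower without B16.F10 replicate 1 or 3 or MC38 replicate 1), and of 7 eosinophil genes, 0 were called and all had means under 3.51 in both groups. The neutrophil differences ran from -1.98 to 2.17. Trem1, an activating receptor of myeloid cells, was at 8.74, 8.66 and 9.12 in MC38 tumours and 6.35, 6.37 and 7.29 in B16.F10 tumours. The 2 lower genes were S100a9 and Ltf, and S100a9 lost its call under 7 of the 17 alternatives. Elane and Mpo, the granule genes of neutrophil precursors, lay between 2.85 and 3.90 on all 6 arrays. Of 11 mast cell and basophil genes, 5 were higher and 0 lower, with a median of 1.16, whereas in Nrp1-deleted hosts 4 were higher and 4 lower, with a median of -0.03. Without B16.F10 replicate 1, 1 member was lower in control hosts. Cpa3, encoding a mast cell carboxypeptidase, had levels of 8.38, 7.36 and 8.54 in MC38 tumours, against 5.32, 3.89 and 5.55 in B16.F10 tumours. Cma1, encoding a chymase, differed by 3.13 ± 0.51, Fcer1a, the IgE-binding chain of the high-affinity receptor, by 2.38 ± 0.63, and the tryptase genes Tpsb2 and Tpsab1 by 1.65 and 1.28. Mcpt2, a mast cell protease gene outside the list, had the largest rise under the naming rule, at 9.66, 8.47 and 9.35 in MC38 tumours and 2.87, 2.48 and 2.92 in B16.F10 tumours. It belongs to a family of similar genes that probe sets may not separate. Mcpt8, the basophil protease, was not called, with a difference of -0.19 ± 0.59, and was the 1 member of the list whose difference differed between the hosts, at -3.90 in Nrp1-deleted hosts.

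T cell transcripts were lower in MC38 tumours. All 14 measured T cell genes were lower, with a median difference of -2.25. The arrays did not overlap for 13 of them, against 39.2% of all genes. Cd3g, encoding a chain of the T cell receptor complex, had levels of 8.44, 9.43 and 7.33 in MC38 tumours, against 10.70, 10.89 and 10.63 in B16.F10 tumours. The MC38 arrays were spread over more than 2 units, with replicate 3 lowest and replicate 2 highest, while the B16.F10 arrays were close together. The difference was -2.34 ± 0.34 (adjusted p = 9.82e-06), a 5.05-fold lower level. Bcl11b, a transcription factor of the T lineage, differed by -2.63 ± 0.34, and Cd5, Lat and Cd247, all parts of T cell receptor signalling, by -2.36, -2.33 and -2.28. The mean level over the list was 5.81 to 7.58 on the MC38 arrays and 8.69 to 8.90 on the B16.F10 arrays. Leaving out 1 array at a time kept the median between -2.77 and -1.70. In a fit of the 6 arrays alone, 13 of the 14 genes were lower.

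Genes of cytotoxic lymphocytes moved in the same direction. Of 16 genes, 13 were lower and 0 higher, with a median of -1.70, and 11 were lower in a fit of the 6 arrays alone. Cd8b1, encoding a chain of the CD8 co-receptor, was at 7.65, 9.12 and 6.53 in MC38 tumours and 10.16, 10.46 and 10.06 in B16.F10 tumours. Gzmk, encoding granzyme K, had the largest fall of the list, at 6.06, 7.34 and 4.69 in MC38 tumours and 9.53, 9.27 and 9.10 in B16.F10 tumours, a difference of -3.26 ± 0.49. Tbx21, the transcription factor of type 1 responses, differed by -2.37 ± 0.39, and Crtam, an adhesion receptor of activated T and NK cells, by -1.81 ± 0.25. Those not called were Gzma, Gzmc and the chemokine Ccl5, with differences of -0.53 ± 0.27, 0.29 ± 0.54 and -0.36 ± 0.17. NK cell genes were split, with 5 of 10 lower and 0 higher and a median of -0.57. Without MC38 replicate 3, 2 were lower and 1 higher with a median of -0.23, and without MC38 replicate 2 the median was -0.92. Ncr1, the receptor that defines NK cells, was at 6.48, 6.89 and 5.35 in MC38 tumours and 6.43, 6.52 and 6.84 in B16.F10 tumours, with a difference of -0.36 ± 0.31 (adjusted p = 0.437).

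Inhibitory receptors were split. Of 7 measured, 5 were lower and 2 higher in MC38 tumours. Pdcd1, encoding PD-1, had levels of 6.67, 7.93 and 5.42 in MC38 tumours, against 9.34, 9.78 and 9.37 in B16.F10 tumours. The 3 MC38 arrays lay below all B16.F10 arrays, with a 7.07-fold lower level (adjusted p = 3.99e-06). Btla was lower by -2.64 ± 0.19, Ctla4 by -2.21 ± 0.44 and Cd160 by -1.74 ± 0.24. The 2 higher genes were Havcr2, encoding TIM-3, and Entpd1, encoding CD39, both of which myeloid cells also carry, with differences of 0.55 ± 0.15 and 1.37 ± 0.17. Of 14 regulatory T cell genes, 8 were lower and 2 higher, or 5 lower without MC38 replicate 3. Ikzf2, the transcription factor Helios, was at 7.44, 7.33 and 6.32 in MC38 tumours and 9.36, 9.57 and 9.27 in B16.F10 tumours. Tnfrsf4 and Tnfrsf18, the co-stimulatory receptors OX40 and GITR, differed by -2.19 and -1.83. Foxp3 itself was dim, at 3.44, 2.70 and 3.05 in MC38 tumours and 3.01, 2.65 and 3.17 in B16.F10 tumours, so its 0.12 ± 0.17 says little about regulatory T cells. Nrp1 was bright and not called, at 9.62, 9.64 and 9.53 in MC38 tumours and 9.55, 9.22 and 8.93 in B16.F10 tumours. Among 9 T helper cytokines, 2 were lower, Csf2, encoding the growth factor GM-CSF, by -1.47 ± 0.27, and Il21 by -0.85 ± 0.29, whose call was lost under 6 other settings, among them leaving out B16.F10 replicate 1 or MC38 replicate 1 or 2.

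Jchain, a gene of plasma cells, and 3 plasmacytoid dendritic cell genes were lower in MC38 tumours, while the list of B cell and plasma cell genes did not move in one direction. Jchain joins the units of IgM and IgA and had levels of 2.32, 2.93 and 3.17 in MC38 tumours and 7.63, 6.69 and 9.14 in B16.F10 tumours. The 3 MC38 arrays were dim, and the difference was -5.01 ± 0.48. Of the 13 genes of that list, 2 were higher (0 without B16.F10 replicate 2, 1 without MC38 replicate 3) and 2 lower (1 without B16.F10 replicate 3), 9 were not called, and the median was 0.01. Of those not called, Ighm, the heavy chain of IgM, differed by 0.01 ± 0.32, and Cd79a and Pax5, which define B cells, lay between 2.22 and 4.12 on all 6 arrays. Of 5 measured plasmacytoid genes, 3 were lower and 1, Tcf4, was higher. Tcf4 lost its call without B16.F10 replicate 3 or MC38 replicate 1. Klk1, encoding a kallikrein protease, was at 2.78, 3.51 and 2.98 in MC38 tumours and 7.65, 6.92 and 8.01 in B16.F10 tumours. Ccr9, a gut-homing chemokine receptor, differed by -3.32 ± 0.24 and Ly6d by -2.42 ± 0.38. Of 11 genes of type 1 conventional dendritic cells, 5 were lower and 1 higher, the sensor Tlr3, whose call was lost in 4 of the 6 fits without 1 array. Xcr1, the chemokine receptor that defines these cells, was at 3.77, 4.98 and 3.32 in MC38 tumours and 5.65, 6.82 and 6.83 in B16.F10 tumours. Flt3, the receptor for the growth factor of dendritic cells, and Zbtb46, a transcription factor of the lineage, differed by -1.76 and -1.33, while Batf3 and Irf8, also needed by these cells, were not called at 0.15 ± 0.22 and 0.06 ± 0.11. Of 11 genes of mature dendritic cells, 4 were lower, among them Fscn1, an actin-bundling protein, at -1.09 ± 0.23, and 3 were higher, among them the co-stimulatory receptor Cd40 at 0.97 ± 0.22.

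Class II antigen presentation and a few interferon-gamma targets were higher, whereas class I and type I interferon genes were near the median of all genes. Of 10 class II genes, 8 were higher and 0 lower, with a median of 0.89. H2-DMa, which loads peptides onto class II molecules, had levels of 11.32, 11.35 and 11.02 in MC38 tumours and 10.02, 10.02 and 10.17 in B16.F10 tumours. H2-Ab1, encoding a chain of the class II molecule itself, differed by 0.97 ± 0.20. Of 12 class I genes, 2 were higher, Psmb10 and Tapbp, by 0.36 and 0.32, and the median was 0.06 (-0.01 to 0.13 without 1 array). Of 18 type I interferon genes, 1 was higher and 1 lower, with a median of 0.09 (-0.02 to 0.19 without 1 array). The lower one, Mx1, lost its call without B16.F10 replicate 2 or MC38 replicate 1 or 3, and the higher genes were 2 without B16.F10 replicate 1 or 2 or MC38 replicate 3. Of 15 interferon-gamma genes, 6 were higher and 0 lower. Cxcl9, the chemokine that attracts Cxcr3-bearing T cells, was at 12.57, 12.61 and 12.02 in MC38 tumours and 10.46, 9.68 and 10.30 in B16.F10 tumours, a 4.77-fold higher level. The GTPase genes Gbp2 and Iigp1 differed by 1.31 ± 0.13 and 1.07 ± 0.21. Cxcr3, the receptor for Cxcl9, went the other way, at 7.19, 7.24 and 6.72 in MC38 tumours and 9.21, 9.01 and 8.68 in B16.F10 tumours. A core of the interferon-stimulated response element, GAAA and again GAAA after any 2 bases, was found on either strand in a promoter window of 9 of the 12 interferon-gamma list members in the RefSeq table, both called (Cxcl10, Gbp2 and Gbp3) and not called, and in 4.0% of all genes there.

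**Figure D3:**
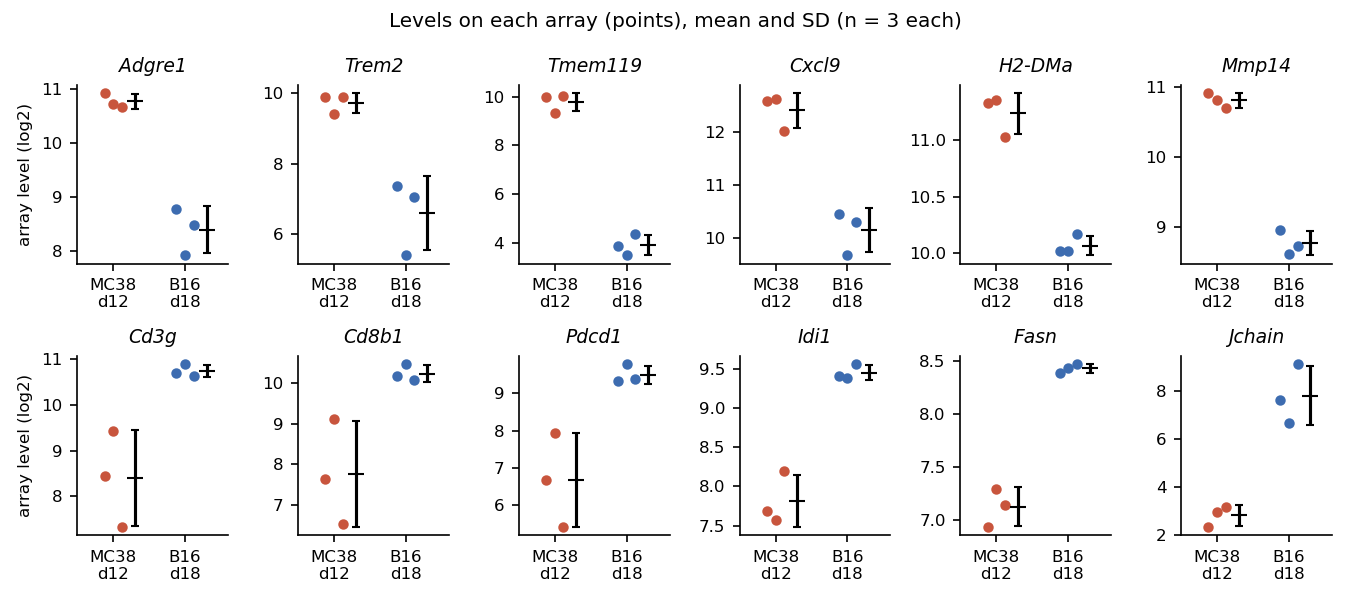
Array levels (log2, vertical axes of different range) of 12 genes, MC38 day 12 in red at the left and B16.F10 day 18 in blue at the right of each panel, 1 point per array, with the mean and SD of 3 arrays in black beside them. The upper 6 genes are higher and the lower 6 lower in MC38 tumours, and the MC38 arrays are spread more widely than the B16.F10 arrays for the T cell genes Cd3g, Cd8b1 and Pdcd1.

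Among cytokines and chemokines, single genes moved rather than whole families. Of 13 inflammatory cytokine genes, 3 were higher and 1 lower (3 lower without MC38 replicate 2). Il1a, encoding interleukin-1 alpha, was at 8.33, 7.74 and 8.61 in MC38 tumours and 6.22, 5.80 and 7.30 in B16.F10 tumours, and Tnf differed by 1.09 ± 0.28. Il6, encoding interleukin-6, was at 4.80, 5.05 and 4.61 in MC38 tumours and 6.09, 6.58 and 7.32 in B16.F10 tumours, a difference of -1.84 ± 0.40. Of 15 CC chemokines, 5 were lower and 1 higher (0 in each fit without 1 array), with Ccl17 and Ccl22, ligands of the T cell receptor Ccr4, at -2.00 ± 0.51 and -1.79 ± 0.35. Of 11 CXC chemokines, 4 were higher and 1 lower. Cxcl14 had levels of 8.53, 8.45 and 8.86 in MC38 tumours, against 3.86, 3.10 and 3.75 in B16.F10 tumours, where it was dim. Cxcl16, the ligand of Cxcr6, differed by 2.74 ± 0.20, while Cxcr6 itself, on T cells, differed by -2.31 ± 0.45. The lower gene was Ppbp, a platelet chemokine, at 2.79, 2.65 and 4.38 in MC38 tumours and 7.53, 4.55 and 7.15 in B16.F10 tumours.

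Genes of cholesterol synthesis were lower in MC38 tumours almost throughout. Of 16 measured, 15 were lower and 0 higher, with a median difference of -0.89. Idi1, which isomerises the isoprene unit, had levels of 7.68, 7.57 and 8.19 in MC38 tumours, against 9.41, 9.38 and 9.56 in B16.F10 tumours. All 3 MC38 arrays lay below all B16.F10 arrays, with a difference of -1.64 ± 0.20 (adjusted p = 6.21e-07). Hmgcs1, which makes the substrate of the rate-limiting step, was at 4.09, 3.56 and 4.27 in MC38 tumours and 5.18, 6.36 and 5.55 in B16.F10 tumours. Cyp51, Sqle and Fdft1, later enzymes of the pathway, differed by -1.15, -1.08 and -1.07. The 1 not called was Mvk, mevalonate kinase, with 0.04 ± 0.19. Among 12 fatty acid genes, 7 were lower and 1 higher. Fasn, fatty acid synthase, was at 6.94, 7.30 and 7.15 in MC38 tumours and 8.39, 8.43 and 8.47 in B16.F10 tumours, and the desaturase Fads1 was the higher gene, by 1.17 ± 0.18. Pathways of cholesterol synthesis are also run by dividing and tumour cells, and the cell cycle and melanocytic lists moved in the same direction, with a part that was not tested.

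The promoters of Hmgcs1 and Idi1 are shown because they had the largest falls of the pathway. CCAAT, the box bound by the factor NF-Y, and TCACNCCAC, a form of the sterol regulatory element, are in capitals on either strand, in RefSeq windows of build GRCm38.p6.
Hmgcs1, chr13:119690101-119690400, plus strand: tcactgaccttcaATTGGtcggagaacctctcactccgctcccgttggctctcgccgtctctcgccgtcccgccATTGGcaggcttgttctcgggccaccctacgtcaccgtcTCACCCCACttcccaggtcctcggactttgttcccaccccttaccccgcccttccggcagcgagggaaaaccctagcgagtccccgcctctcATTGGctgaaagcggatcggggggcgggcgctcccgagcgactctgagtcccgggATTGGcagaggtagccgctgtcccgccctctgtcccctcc
Idi1, chr13:8885356-8885655, plus strand: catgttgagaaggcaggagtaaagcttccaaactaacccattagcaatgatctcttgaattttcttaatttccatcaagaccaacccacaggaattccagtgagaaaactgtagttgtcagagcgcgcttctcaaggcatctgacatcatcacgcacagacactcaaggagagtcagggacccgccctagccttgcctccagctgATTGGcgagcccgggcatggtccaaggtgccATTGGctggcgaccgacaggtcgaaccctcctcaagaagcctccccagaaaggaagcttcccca
CCAAT was found in a window of 13 of the 13 list members in the RefSeq table and in 41.1% of all genes there, and TCACNCCAC in 1 of the 13, Hmgcs1, and in 1.4% of all genes. Mvk, which was not called, holds CCAAT too. The motifs do not overlap each other in these windows.

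Lipid handling and other metabolic genes differed by gene. Of 13 genes of lipid uptake and efflux, 7 were higher and 3 lower in MC38 tumours. Apoc2, the cofactor of lipoprotein lipase, was at 9.34, 9.12 and 9.46 in MC38 tumours and 6.69, 6.26 and 6.54 in B16.F10 tumours, whereas Lpl, the lipase itself, was at 6.6, 5.50 and 7.70 in MC38 tumours and 10.31, 8.78 and 9.74 in B16.F10 tumours. The enzyme and its cofactor thus differed in opposite directions, by -3.01 ± 0.48 for Lpl and 2.81 ± 0.31 for Apoc2. Fabp4, a carrier of fatty acids, was lower by -1.72 ± 0.38. In arginine metabolism, with 3 of 10 genes higher and 3 lower, the transporter gene Slc7a2 was at 8.0, 6.45 and 7.24 in MC38 tumours and 2.91, 3.66 and 4.23 in B16.F10 tumours. The related transporter Slc7a1 differed by -0.91 ± 0.11. Of 12 glycolysis genes, 1 was higher, the lactate exporter Slc16a3 by 1.11 ± 0.18, and 4 were lower, or 2 without B16.F10 replicate 2. Of 13 hypoxia genes, 1 was higher and 5 lower. Vegfa, the growth factor of blood vessels, was at 9.93, 9.99 and 9.92 in MC38 tumours and 7.99, 8.77 and 8.83 in B16.F10 tumours, while Car9, a carbonic anhydrase induced by hypoxia, was at 6.25, 6.22 and 6.20 in MC38 tumours and 8.72, 9.33 and 8.67 in B16.F10 tumours.

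Of 19 cell cycle genes, 15 were lower and 0 higher in MC38 tumours. The arrays of the groups did not overlap for any of the 19, against 39.2% of all genes without overlap. The median difference was -0.62, smaller than that of the T cell list. Mki67, the proliferation marker Ki-67, was at 9.14, 8.43 and 9.06 in MC38 tumours and 9.58, 9.88 and 9.69 in B16.F10 tumours, with MC38 replicate 2 lowest. Rrm2, Ccnb2 and Mcm2, of nucleotide supply, mitosis and replication licensing, differed by -0.92, -0.90 and -0.89. Those not called were Top2a, Cdk1, Bub1 and Aurkb, with differences between -0.54 and -0.35.

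**Figure D4:**
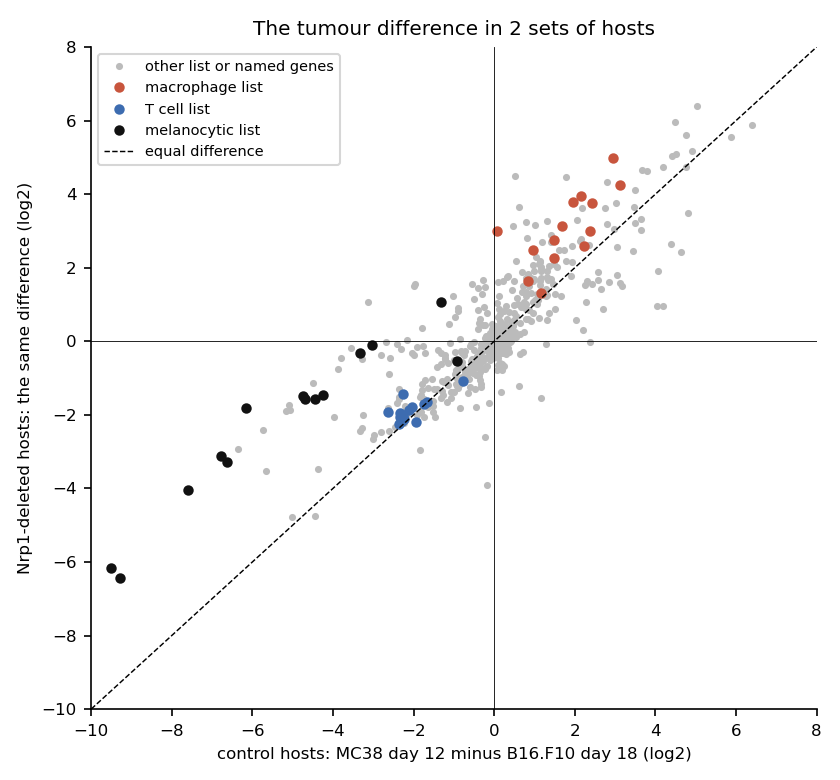
The difference of MC38 day 12 minus B16.F10 day 18 (log2) in control hosts (horizontal axis) and in Nrp1-deleted hosts (vertical axis), 1 point per list or named gene, with macrophage genes in red, T cell genes in blue, melanocytic genes in black and a dashed line of equal differences. All 14 macrophage genes lie above the line, as do 13 melanocytic genes that differ between the hosts, and T cell genes lie within 0.84 of it.

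The same comparison in Nrp1-deleted hosts uses 6 other arrays. In those hosts 5562 genes were called (32.5%), 2437 higher (14.3%) and 3125 lower (18.3%) in MC38 tumours. Of the 5257 genes called in control hosts, 4767 (90.7%) had the same direction in Nrp1-deleted hosts, against 69.7% of all genes, and 3452 were called there in the same direction. These make up 65.7% of the control calls and 62.1% of the Nrp1-deleted calls, and 41 genes were called in opposite directions. T cell genes were lower in all 14 cases in both hosts, with medians of -1.94 in Nrp1-deleted hosts and -2.25 in control hosts. Cholesterol genes had medians of -0.98 in Nrp1-deleted hosts and -0.89 in control hosts, with 13 and 15 of 16 lower. Macrophage genes had medians of 3.0 in Nrp1-deleted hosts and 1.82 in control hosts, with 14 and 12 of 14 higher. Other lists were less alike. Alternative macrophage genes were 8 higher and 1 lower in Nrp1-deleted hosts, with a median of 1.52, and 4 higher and 7 lower in control hosts, with a median of 0.10. Mature dendritic cell genes were 6 higher and 1 lower in Nrp1-deleted hosts, and 3 higher and 4 lower in control hosts. Type I interferon genes were 2 higher and 7 lower in Nrp1-deleted hosts, and 1 higher and 1 lower in control hosts, and mast cell and basophil genes differed as given above.

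The difference between the tumours itself differed between the hosts for 791 genes (4.63%), tested as an interaction in limma, of which 569 had a higher MC38-minus-B16.F10 difference in Nrp1-deleted hosts (3.33%) and 222 a lower one (1.3%). Of the 14 melanocytic genes, 13 were among them, all with a higher MC38-minus-B16.F10 difference in Nrp1-deleted hosts. Their summed linear level on the B16.F10 arrays was 956 to 2208 in Nrp1-deleted hosts, against 12857 to 18238 in control hosts, and on the MC38 arrays 313 to 355 and 348 to 385. Dct had levels of 9.32, 9.26 and 7.91 in B16.F10 tumours of Nrp1-deleted hosts, lower than on all 3 arrays of control hosts. Of the 14 macrophage genes, 5 differed between hosts, all with a larger rise in Nrp1-deleted hosts, and 5 of 15 alternative macrophage genes had a higher difference there. Of the 14 T cell and the 16 cholesterol genes 0 did. Ms4a7 was at 6.39, 6.47 and 5.82 in B16.F10 tumours of Nrp1-deleted hosts, against 9.26, 7.35 and 8.89 in those of control hosts. Of 11 genes of type 1 dendritic cells, 6 differed between hosts, and Xcr1 had differences of -0.08 in Nrp1-deleted hosts and -2.41 in control hosts. The type VI collagens Col6a1 and Col6a2 had a smaller rise in Nrp1-deleted hosts, 0.96 for both, against 4.2 and 4.03 in control hosts. The summed level of the fibroblast list on MC38 arrays was 1003 to 1456 in Nrp1-deleted hosts and 3745 to 4229 in control hosts, and its part was not tested.

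**Figure D5:**
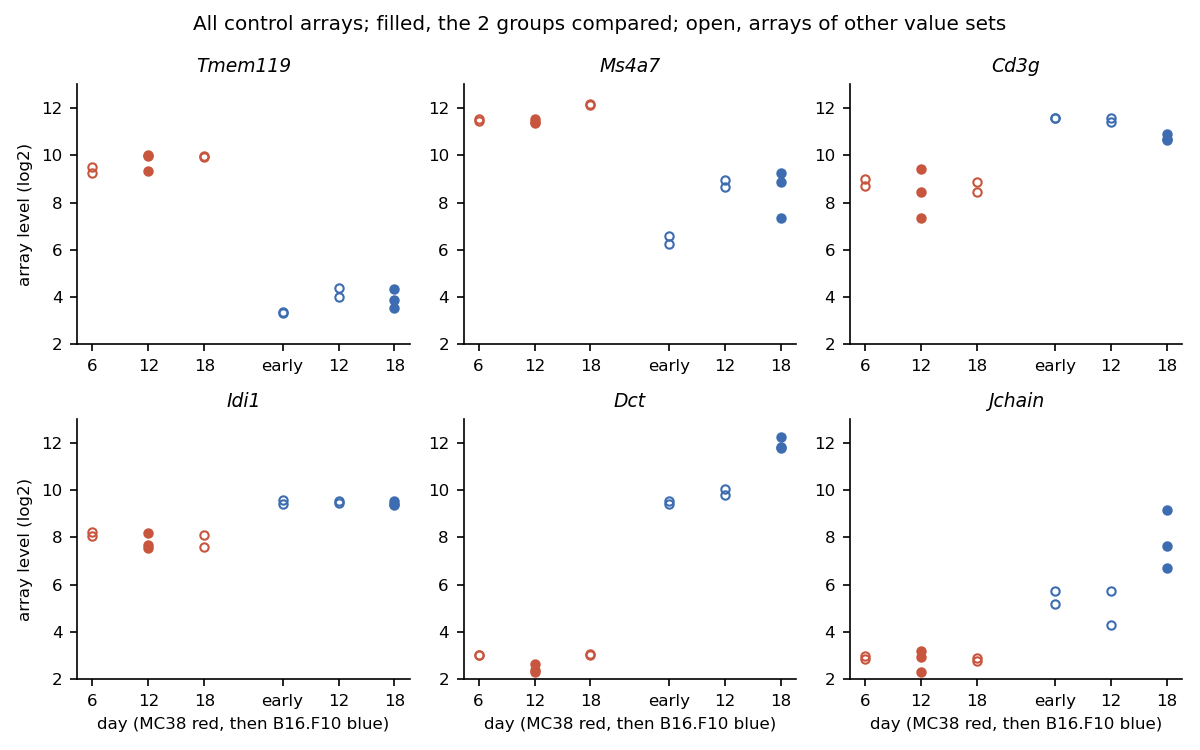
Array levels (log2, vertical axis from 2 to 13) of 6 genes on all control arrays by day, MC38 in red from day 6 to 18 and B16.F10 in blue from an early day, which the labels give as day 8 and as day 6, to day 18, filled for the 2 groups compared and open for arrays that lie in other sets of values. Tmem119 lies above 9 on all MC38 arrays and under 5 on all B16.F10 arrays, and Dct is highest in B16.F10 tumours on day 18.

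Control arrays of other days give same-day differences, but they cross sets of arrays whose value distributions differ. The quantiles of arrays differed by a root mean square of 0.011 to 0.091 within the set of the compared groups, and by 0.211 to 0.367 from the other sets. The median of all genes was shifted by -0.25 on day 12 and 0.25 on day 18, so differences are given relative to it. Each same-day comparison also shares 3 arrays with the main one, so the values are only set side by side. On day 12, 43.9% of genes were called, 8.57% higher and 35.3% lower, and on day 18, 46.5% were called, 35.2% higher and 11.3% lower. For Tmem119 the difference was 5.84 on day 12 and 5.78 on day 18, beside 5.87 between day 12 and day 18. For Cd3g it was -2.86 on day 12 and -2.34 on day 18, beside -2.34. Lists gave medians on day 12 and day 18 of 1.66 and 2.01 for macrophage genes, -2.48 and -2.68 for T cell genes, and -0.76 and -1.17 for cholesterol genes. Other genes had less similar values on day 12 and day 18, and the day and the set of arrays cannot be told apart. Dct differed by -7.24 on day 12 and -9.15 on day 18, and Car9 by 0.23 and -2.75. Hmgcs1 differed by 0.10 on day 12 and -2.50 on day 18, and C2 by -0.19 and -3.48. The melanocytic median was -1.80 on day 12 and -5.4 on day 18. Cell cycle genes had medians of -0.21 on day 12 and -0.51 on day 18.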

How the data were processed

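RNA of CD45+ cells was measured on 28 Affymetrix arrays, 6 of which form the comparison. The deposited values are log2 intensities, which the submitters' processing notes credit to RMA and to Partek 6.6, and cRNA was amplified in a repeated cycle per the labels' protocols, which can distort dim transcripts. The files give no detection call, scanner date or depth, so precision rests on how many arrays each group has. Of 45141 probe sets, 28898 name 1 gene, 551 several, and 15692 are unnamed here, 104 control probe sets among them. For each of 17097 genes, 7180 of them with several probe sets, the brightest on average across the 28 arrays was used. Of 573 genes in 45 lists of textbook markers and pathways, 506 were measured, and some genes stand in 2 lists.

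limma 3.58.1 in R 4.3.3 was fitted with a mean for each of 12 groups on all 28 arrays, with an intensity trend, 2-sided tests and Benjamini-Hochberg adjustment over all genes. All adjusted p-values are from limma. Named genes include the 15 largest rises and the 15 largest falls. These were taken among called genes whose arrays do not overlap, whose higher mean exceeds 3.51 and which have an established name. Without those filters, up to 5 called members of each list with the largest difference were added. Ptprc, Pmel, Epcam, Col1a1, Nrp1 and Foxp3 were added whether called or not. Members that were not called, and called ones where a list had 5 or fewer, may be named beside the named genes. The members and lists were chosen with earlier results of these data known. On simulated data with 200 changed genes of 17097 the fit recovered 32.8%, 95.5% and 97% of changes of 0.5, 1 and 2, with 5.66% of calls false. Far fewer genes were changed there than the 30.7% called in the data, so these shares need not hold for the comparison. Same-numbered arrays of the 2 groups did not deviate together (correlations -0.029, 0.094 and 0.026), so replicate numbers were not taken as pairs. Alternatives covered dim genes, probe sets, normalization, variance models, the arrays fitted, a replicate block and leaving out each array.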

Additional observations from a re-analysis of the deposited data

Results flagged for a closer look

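The MC38-minus-B16.F10 difference was set in Nrp1-deleted hosts against control hosts by an interaction term in limma, and 791 genes passed an adjusted p of 0.05, among them 41 of the 199 named genes. The values below are the difference in Nrp1-deleted hosts minus that in control hosts, on the log2 scale.

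Pigment cell genes and others that fell in MC38 tumours of control hosts had a higher difference in Nrp1-deleted hosts. The change was 3.34 for Dct, 2.85 for Tyrp1, 3.56 for Mlana, 3.67 for Tyr, 3.34 for Pmel and 4.35 for Slc45a2. It was 3.24 for Rab38, 3.13 for Trpm1, 3.41 for Syt4, 3.32 for Ptgds and 2.14 for Car6. It was 3.27 for Gsta4, 3.38 for Gsta2, 3.21 for Sparcl1, 1.92 for Gpnmb, 2.66 for Car9 and 2.78 for C2. Such a change was also seen in the platelet chemokine Ppbp (4.22), in S100a9 (3.48), whose call in control hosts was lost under 7 of the 17 alternatives, and in the leukocyte genes Xcr1 (2.33), Ccl22 (2.16), Itgae (2.12) and Cd24a (1.73), and the lipid gene Scd1 (1.64).

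The rise in MC38 tumours was larger in Nrp1-deleted hosts for the macrophage genes Stab1 (2.68), Ms4a7 (2.03), C1qa (1.83) and C1qc (1.81), for Cxcl14 (1.35), Vegfa (1.28) and Mmp14 (1.25), and for the class II genes H2-Ab1 (1.10) and H2-DMb2 (1.01). The difference was lower for matrix genes, with -3.24 for Col6a1, -3.07 for Col6a2, -1.32 for Dcn, -1.73 for Htra1, -1.25 for Mmp2 and -1.01 for Mmp11, and for Cd34 (-2.21) and Gbp2 (-0.74). The melanocytic summed levels of the B16.F10 arrays, given above, also differed between the hosts. These sums include several of the pigment cell genes listed here, and their part in the other values was not tested.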

How the results depend on the processing

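The 5257 calls between MC38 and B16.F10 tumours in control hosts became 4093 to 5265 under the 17 alternatives, with 4146 in a fit of the 6 arrays alone and 4093 when that fit also had a replicate block, and 4380 to 4832 when 1 array was left out. The 5562 Nrp1-deleted calls became 4672 in a fit of their own 6 arrays and 4082 when that fit also had a replicate block, and 4712 to 5318 without 1 array. The 791 genes that differed between hosts were 515 in a fit of the 12 arrays alone, 470 when that fit also had a replicate block, and 537 to 1098 without 1 array. Of these, the genes with a lower difference were 96, 71 and 120 to 369, against 222 in the fit of all arrays, with 135 without B16.F10 control replicate 2, 120 without B16.F10 Nrp1-deleted replicate 2 and 369 without B16.F10 Nrp1-deleted replicate 3. The same-day splits into higher and lower followed the normalization. On day 12, 1466 higher and 6042 lower became 2803 and 2679 with cyclic loess, 2674 and 2821 with quantile normalization, and 3152 and 2877 with arrays centred on their 75th percentile. On day 18, 6014 higher and 1939 lower became 2890 and 3159 with cyclic loess, 3006 and 2941 with quantile normalization, and 3549 higher with the 75th percentile. Without 1 array they were 1069 to 1415 higher and 4487 to 5635 lower on day 12, and 4248 to 5673 higher and 1445 to 1850 lower on day 18.

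Of the results for single named genes under these settings, 3275 kept their direction and side of the threshold, 98 in 27 genes lost the call and 3 gained it. The changes of sign were in uncalled values. The difference of Epcam was 0.067 with the mean over probe sets, the difference of Col1a1 was -0.088 to 0.209 and the difference of Foxp3 -0.068 to 0.304 without 1 array. Averaging probe sets moved 21 called genes by over 1.5 times. Of those described above, it gave 2.75 for Col14a1, 1.79 for Trem2, 2.05 for Slc7a2, -0.60 for Slc7a1, 0.58 for Fads1, -0.94 for Fabp4, 0.92 for Tpsb2, -1.93 for Ccr9, -2.78 for Klk1, -1.40 for Cd247, -0.72 for Zbtb46, -0.70 for Fscn1, -0.60 for Fcrla, 0.47 for H2-DMb2 and -0.48 for Il21, and of these H2-DMb2 and Il21 lost their calls. The cause of these changes was not tested. With 3 arrays a group an exact permutation test cannot reach the threshold, and RMA compresses differences of dim probe sets.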

Other observations

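Several genes outside the lists, chosen after their values were seen, differed as much as list members. Among genes higher in MC38 tumours, Itgb5, an integrin chain that binds vitronectin, was at 10.60, 10.28 and 10.62 in MC38 tumours and 7.28, 5.95 and 6.94 in B16.F10 tumours. Clec5a, an activating lectin of myeloid cells, differed by 3.66 ± 0.30, Ch25h, which makes 25-hydroxycholesterol, by 3.02 ± 0.29, and Tnfsf13b, encoding the B cell survival factor BAFF, by 3.5 ± 0.23. Nt5e, encoding the ecto-nucleotidase CD73, was at 8.97, 8.75 and 9.72 in MC38 tumours and 6.59, 6.42 and 7.16 in B16.F10 tumours. Kitl, encoding stem cell factor, the ligand of the mast cell receptor Kit, differed by 2.58 ± 0.29, while Kit was not called at -0.50 ± 0.29. The mast cell proteases Mcpt4 and Mcpt1 differed by 2.36 ± 0.46 and 2.57 ± 0.56, and Mcpt1 was dim on MC38 replicate 2, at 2.95 against 6.03 and 5.77 on the others.

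Among genes lower in MC38 tumours, the immunoglobulin segment Igkj1 was at 5.47, 7.30 and 6.62 in MC38 tumours and 10.82, 10.23 and 11.44 in B16.F10 tumours. Sh2d1a, the adaptor SAP of T and NK cells, differed by -3.27 ± 0.32, Themis, needed for T cell selection, by -2.99 ± 0.39, and the co-stimulatory receptor Cd27 by -2.61 ± 0.37. Cd209a, a lectin of monocyte-derived dendritic cells, was at 4.25, 5.41 and 4.19 in MC38 tumours and 7.23, 7.11 and 7.92 in B16.F10 tumours. Pax3 and S100b, genes of neural crest cells, and Met, the receptor of hepatocyte growth factor, differed by -0.76, -0.46 and -0.19 in Nrp1-deleted hosts and by -3.88, -3.80 and -3.55 in control hosts.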
